A study of Mus musculus with 2 samples.

Results

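The genes that encode the proteins of the cytosolic ribosome were examined for binding of Gata1, the zinc finger transcription factor of the red cell lineage, by chromatin immunoprecipitation and sequencing (ChIP-seq). Members were all protein-coding genes of the RefSeq annotation of mm10 whose symbol begins with Rpl or Rps followed by a digit, or with Rplp, without the Rps6k kinases and without pseudogenes. This gave 88 of 21775 protein-coding genes, 34 named for the small subunit and 54 for the large subunit. A member was called bound when a Gata1 peak had its midpoint no more than 10 kb from the gene body or inside it. The family was selected on these same peak counts and named by symbol, so all counts below are descriptions and were not tested.

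The cells came from mouse embryonic stem cells that had been differentiated for 5 days into embryoid bodies, aggregates in which blood cells arise in culture. Cells carrying both a Runx1-ires-GFP and a Gata1::mCherry reporter signal were sorted, and the series design calls this population primitive erythroid, a lineage that makes the earliest embryonic red cells. The series comprised 1 Gata1 ChIP library, made from cells pooled over several sorts, and 1 control library from the same population, which was not analysed here. No expression was measured, so the cell label could be read only at loci. A peak lay within 10 kb of 8 of 9 primitive erythroid marker genes (among them Hba-x, Alas2, Klf1 and Gata1). The exception was the embryonic globin gene Hbb-bh1. Such a peak was present for 1 of 3 endothelial and 0 of 3 myeloid marker genes, beside 16.5% of all protein-coding genes. With 3 genes each, the endothelial and myeloid counts say little. The peak list held 4135 intervals, each 400 bp wide, with no score and no read depth. A gene without a peak is therefore one where none was called, and there was no replicate.

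The cytosolic ribosome is built from a small and a large subunit, each an assembly of ribosomal RNA and one copy of most ribosomal proteins. Red cell precursors make large amounts of haemoglobin in a short time and depend heavily on ribosome supply. Diamond-Blackfan anaemia, a failure of red cell production present from infancy, arises from loss of 1 copy of any of many ribosomal protein genes, and in rare families from changes in GATA1 itself. Most ribosomal protein genes are short, are transcribed in every cell, and start their messenger RNA with a run of pyrimidines that couples translation to growth signals.

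Gata1 peaks lay near a minority of the ribosomal protein genes and at distances that ran from the transcription start itself to the edge of the window. A peak was called within 10 kb of 19 of 88 members (21.6%, 95% Wilson interval 14.3 to 31.3%), beside 16.5% of all protein-coding genes. That background lies inside the members' interval. Ribosomal protein genes were short, with a median length of 3.18 kb against 17.2 kb for all protein-coding genes, and short genes have smaller windows. Among all protein-coding genes of at most 10 kb, 10.3% had such a peak. Members also had slightly more coding neighbours within 50 kb (median 4 against 3), and among short genes with at least 4 such neighbours the share was 14.4%. The part of gene length and gene density in the members' share was not tested.

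Only 2 members had more than 1 peak in the window, Rpl14 and Rpl21 with 2 each, and 21 distinct peaks were involved. Of all protein-coding genes, 3.06% had 2 or more. No peak was shared between 2 members within 10 kb. The median distance from the gene to the nearest peak was 39.1 kb for members and 135 kb for all protein-coding genes. With windows of 1 and 5 kb, 11 and 16 members had a peak (12.5 and 18.2%), beside 11.3 and 13.9% of all protein-coding genes. With windows of 50 kb, which take in many neighbouring genes, 47 members (53.4%) had a peak, beside 32.0% of all protein-coding genes.

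**Figure D1:**
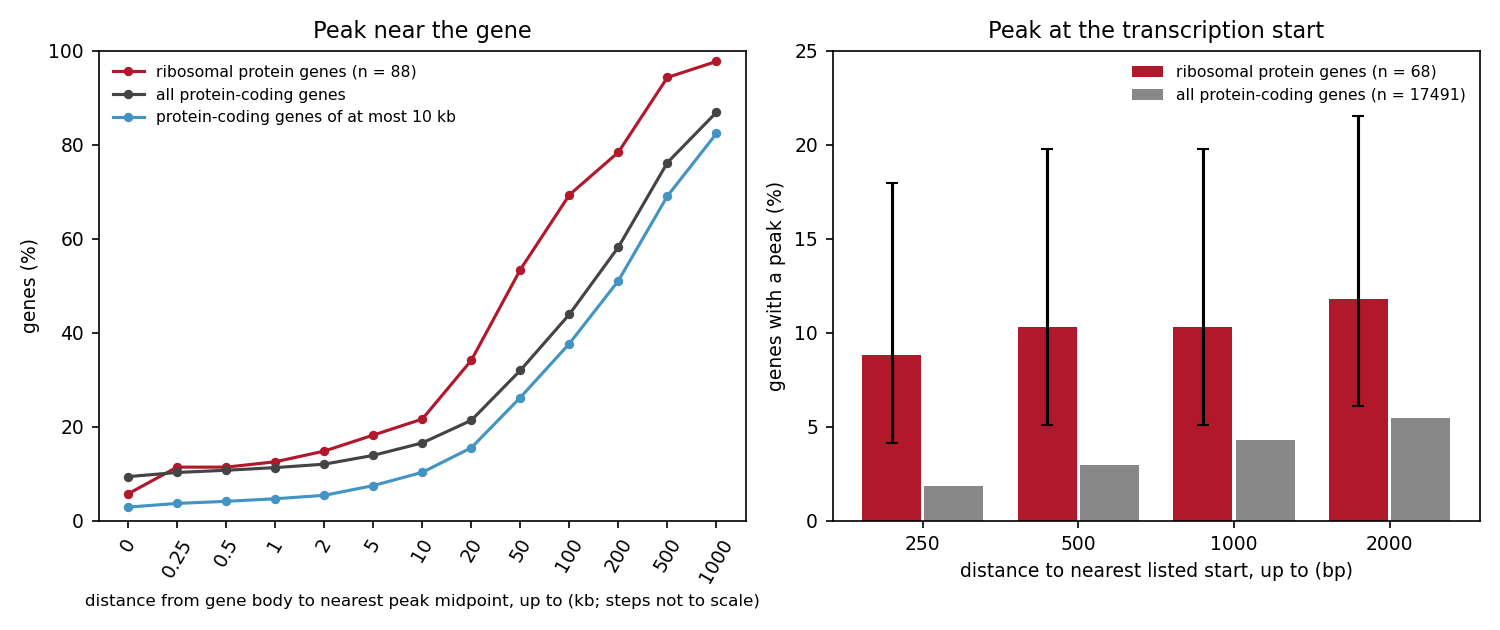
Left, cumulative share of genes (%) whose nearest peak midpoint lies within the distance on the x axis (kb, steps not to scale) for the 88 ribosomal protein genes, all protein-coding genes and those of at most 10 kb. Right, share of genes (%) with a peak midpoint within 250 to 2000 bp of a listed start, with 95% Wilson intervals for the members: the member bars stay between 8.82 and 11.8% while the background rises from 1.83 to 5.45%.

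Peaks at transcription starts were further above their background than peaks within 10 kb, although the start counts leave out members without a listed start. A peak within 10 kb was present in 12 of 68 members with a listed start (17.6%, 10.4 to 28.4%). It was present in 7 of 20 without one (35%, 18.1 to 56.7%), beside 16.5% of all protein-coding genes. A start was listed for 68 of the members, and 7 of them had a peak midpoint within 1 kb of it (10.3%, 5.08 to 19.8%), beside 4.27% of the 17491 protein-coding genes with a listed start and 2.95% of those of at most 10 kb. Within 500 bp the same 7 were counted, beside 2.93% of all. Within 250 bp the count was 6 of 68 (8.82%, 4.11 to 17.9%), beside 1.83% of all and 1.43% of those of at most 10 kb. The member peaks sat close to the start, at a median distance of 57 bp and at most 265 bp. For the 746 protein-coding genes with a peak within 1 kb of the start, the median was 302 bp.

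Rps19 encodes the small subunit protein most often affected in Diamond-Blackfan anaemia. Its peak, at 24884339 to 24884738 on chromosome 7, was centred 54 bp upstream of the start and covered the whole promoter window of 300 bases. No other coding gene lay within 6 kb of its midpoint, the nearest being Dmrtc2 at 6.88 kb. Rps7, another small subunit gene of the anaemia list, carried a peak at 28635691 to 28636090 on chromosome 12, centred 63 bp downstream of the start and inside the gene. There was no other coding gene within 10 kb of it. Rps27, also on that list, had a peak at 90213490 to 90213889 on chromosome 3, centred 41 bp upstream. This peak lay between divergent genes, since its midpoint was also 26 bp upstream of the start of Rab13, which encodes a small GTPase of vesicle traffic. The peak therefore cannot be assigned to either gene from position alone.

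Rpl10, whose product joins the large subunit late in its assembly, had a peak at 74270560 to 74270959 on the X, centred 57 bp upstream. The X held 42 of the 4135 peaks, and the other X-linked members, Rpl36a, Rpl39 and Rps4x, had none within 10 kb. Rpl13 had a peak at 123102161 to 123102560 on chromosome 8, centred 10 bp downstream of the start. Rpl10a had one at 28328492 to 28328891 on chromosome 17, centred 126 bp downstream of the nearer of its 2 listed starts. Rpl19 had one at 98026246 to 98026645 on chromosome 11, centred 265 bp upstream of its nearest listed start, although the annotated gene body begins further upstream and holds the midpoint. All of these encode large subunit proteins. In each case the member was the coding gene nearest to the midpoint.

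Among the 20 members without a listed start, the same close placement was seen at one gene end. Rpl8, encoding a large subunit protein near the site of peptide bond formation, had a peak at 76903840 to 76904239 on chromosome 15, centred 32 bp beyond its lower-coordinate end. Rpl21 had one centred 635 bp beyond its lower-coordinate end with no other coding gene within 10 kb. Rps27a, which encodes a small subunit protein made as a fusion to ubiquitin, had a peak inside the gene, 875 bp from the nearer end. Which end is the start was not given for these genes. Over all 88 members, 10 had a peak within 1 kb of either end (11.4%, 6.29 to 19.7%), beside 4.24% of protein-coding genes.

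**Figure D2:**
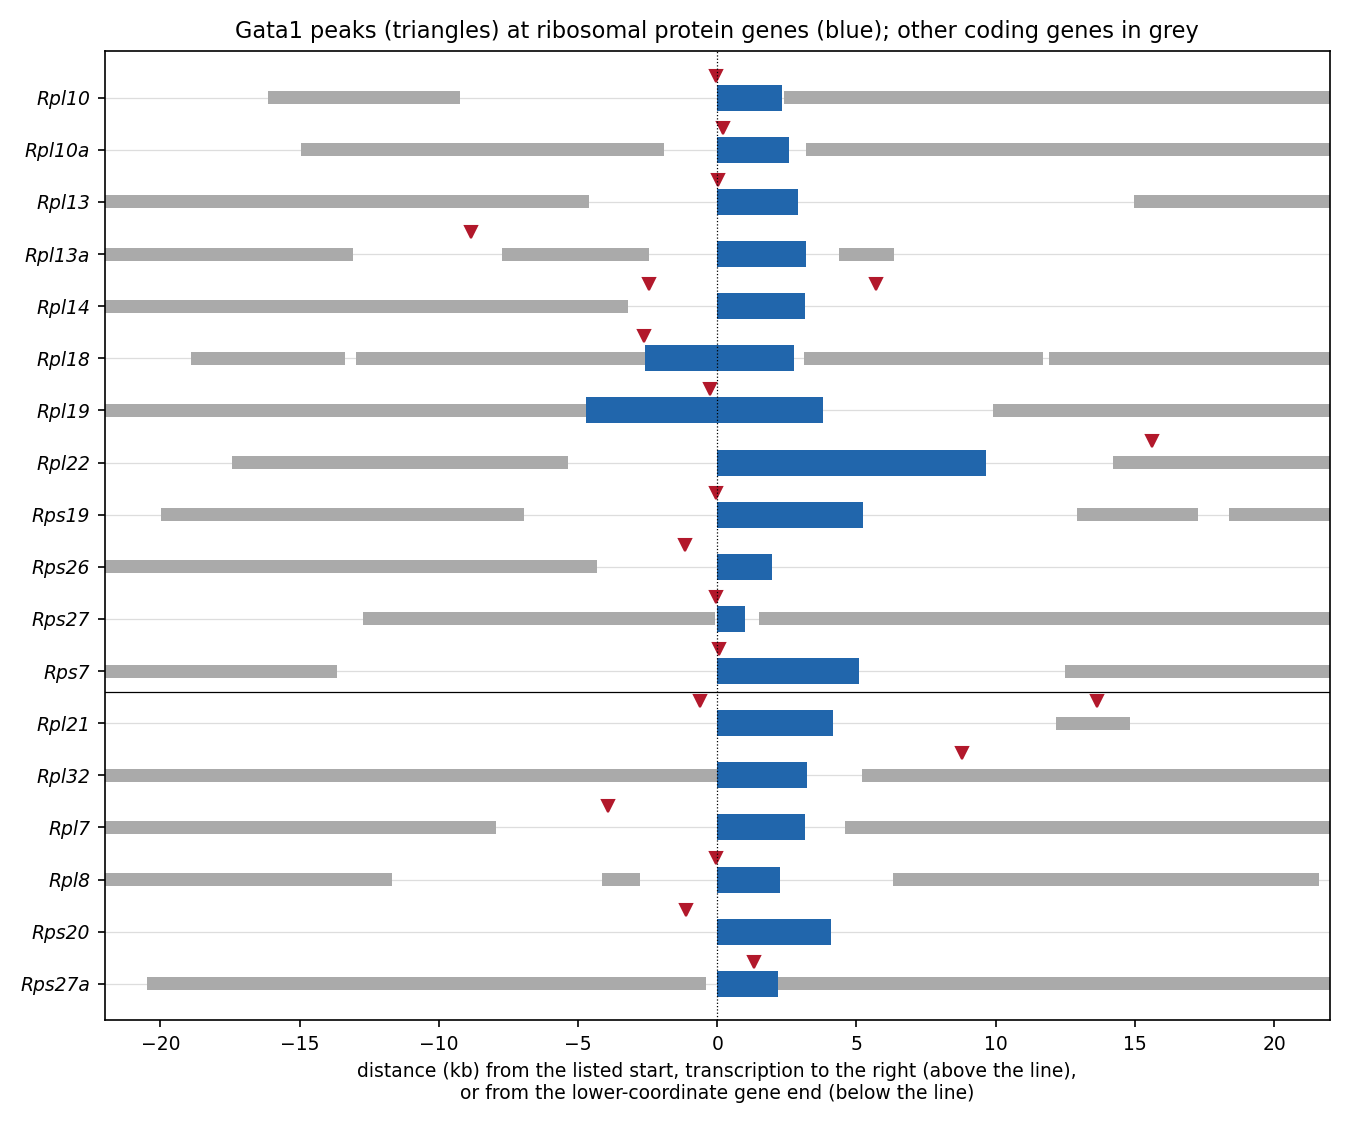
Ribosomal protein genes described in the text with a peak within 10 kb, drawn to scale in kb from the listed start with transcription to the right (above the line) or from the lower-coordinate gene end (below it). Triangles mark peak midpoints, blue bars the member and grey bars other coding genes: triangles stack at 0 for Rpl10, Rpl13, Rps19, Rps27, Rps7 and Rpl8.

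The promoter sequences of the genes with a start peak show how far GATA letters accompany these peaks. The bases just before the listed start are given 5′ to 3′ on the coding strand for 5 members whose peak covers all of them, or in Rps7 the 137 of 180 nearest the start, from RefSeq promoters of GRCm38.p6 (mm10), stopping at the next annotated gene. They span chrX:74270636-74270815 (plus strand) for Rpl10, chr7:24884412-24884591 (plus) for Rps19, chr3:90213649-90213714 (minus) for Rps27, chr8:123102170-123102349 (plus) for Rpl13 and chr12:28635954-28636133 (minus) for Rps7. Capitals mark GATA or its reverse complement TATC. They also take in the flanking bases where GATA is preceded by A or T and followed by A or G, the form that GATA factors prefer.
Rpl10: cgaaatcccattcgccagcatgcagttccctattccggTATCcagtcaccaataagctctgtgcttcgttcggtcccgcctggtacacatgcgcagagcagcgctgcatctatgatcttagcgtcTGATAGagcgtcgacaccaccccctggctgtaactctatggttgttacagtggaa
Rps19: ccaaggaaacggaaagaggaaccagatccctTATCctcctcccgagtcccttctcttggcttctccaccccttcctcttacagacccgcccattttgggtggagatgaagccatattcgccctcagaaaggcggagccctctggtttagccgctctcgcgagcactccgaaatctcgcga
Rps27: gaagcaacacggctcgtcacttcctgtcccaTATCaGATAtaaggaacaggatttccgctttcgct
Rpl13: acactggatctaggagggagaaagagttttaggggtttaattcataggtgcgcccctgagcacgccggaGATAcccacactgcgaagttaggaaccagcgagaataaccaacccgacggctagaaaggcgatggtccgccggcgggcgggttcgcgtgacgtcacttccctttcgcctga
Rps7: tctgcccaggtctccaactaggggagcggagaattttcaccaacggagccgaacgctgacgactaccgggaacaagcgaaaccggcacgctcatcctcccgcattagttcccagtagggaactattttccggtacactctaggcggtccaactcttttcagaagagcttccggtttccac

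In Rpl10 the preferred form TGATAG began 55 bases before the start, 2 bp from the midpoint of the peak. A second preferred form, AGATAG, spanned the Rpl10 start, inside the same peak and further from its midpoint. In Rps27 the letters TATC and GATA stood in a row 6 and 11 bp from the midpoint, neither in a preferred form. The single match shown for Rps19 was 95 bp from the midpoint and that for Rpl13 was 121 bp from it. The Rps7 stretch held none. The Rps7 peak also covers promoter bases after the start, and a match not in a preferred form lay there.

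Over the 6 members with at least 150 promoter bases inside a peak, 1 (Rpl10) had a preferred GATA form in those bases, beside 45.6% of the 270 protein-coding genes with as much of the promoter in a peak. The letters GATA on either strand, without regard to flanks, were found there in 5 of the 6 members (all but Rpl19) and in 71.1% of the 270 genes. With 6 members the intervals are wide (3.01 to 56.4% and 43.6 to 97.0%), and both include the share of all such genes. The remaining bases of each peak lay outside the promoter window and were not searched.

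Preferred GATA forms also occurred in promoters with no peak. For 3 members with such a match, the bases before the start were chr9:64173207-64173386 (plus strand) for Rpl4, chr10:128549169-128549348 (minus) for Rpl41 and chr15:5116563-5116612 (plus) for Rpl37, shown as a contrast to the promoters with a peak and chosen after the matches were seen.
Rpl4: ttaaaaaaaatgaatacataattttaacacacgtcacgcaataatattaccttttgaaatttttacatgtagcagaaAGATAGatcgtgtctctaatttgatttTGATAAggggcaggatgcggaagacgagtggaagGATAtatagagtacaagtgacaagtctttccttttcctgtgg
Rpl41: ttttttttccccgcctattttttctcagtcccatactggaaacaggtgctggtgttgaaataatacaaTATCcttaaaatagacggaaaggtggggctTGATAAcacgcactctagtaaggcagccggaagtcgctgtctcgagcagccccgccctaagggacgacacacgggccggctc
Rpl37: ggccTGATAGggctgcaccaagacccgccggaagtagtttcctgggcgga

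Rpl4 held AGATAG and TGATAA at 103 and 76 bases before the start, and its nearest peak was 88.6 kb away. Rpl41 held TGATAA at 82 bases and its nearest peak was at 31.3 kb, and Rpl37 held TGATAG at 46 bases with the nearest at 19.6 kb. In all, 15 of 68 member promoters (22.1%, 13.8 to 33.3%) contained a preferred GATA form in the window from 250 bases before to 50 after the start, beside 26.7% of all coding promoters. Of these 15, 2 (Rpl10 and Rpl10a) had a peak within 250 bp of that start, and the Rpl10a match lay outside the peak.

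Letters of other kinds were more frequent in member promoters than in all coding promoters. The core of the site for ETS factors, CCGGAAG on either strand, was present in 24 of 68 member promoters (35.3%, 25 to 47.2%) beside 11.9% of all coding promoters. Of the 6 members with a peak within 250 bp of the searched start, 1 (Rps7) held it (3.01 to 56.4%), and of the other 62 members 23 did (37.1%). Of all coding promoters with a peak that close, 63 of 274 held it (23.0%). The letters TCTTTCC, a pyrimidine run searched on the coding strand only, were found in 13.2% of member promoters beside 3.68% of all, and in none of the 6 members with a peak. The core for YY1, AAGATGG on either strand, was found in 14.7% beside 6.35%, among them Rps27 and Rps7. The Rps7 match lay further upstream than its peak reached. In the bases before the start alone, TCTTTCC was no more frequent in members than in all (2.94 beside 3.26%), and AAGATGG was at 5.88 beside 4.08%. The E-box CACGTG bound by Myc and its partners (7.35 beside 7.91%), the CACCC box CCACACCC bound by Klf1 and related factors (2.94 beside 3.66%) and TATAAA on either strand (11.8 beside 13.3%) were about as common in members as in all. In the bases before the start alone, TATAAA was at 7.35% of members (3.18 to 16.1%) beside 12.4% of all. No searched motif contains another. A match is a stretch of letters and was not read as a bound site.

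**Figure D3:**
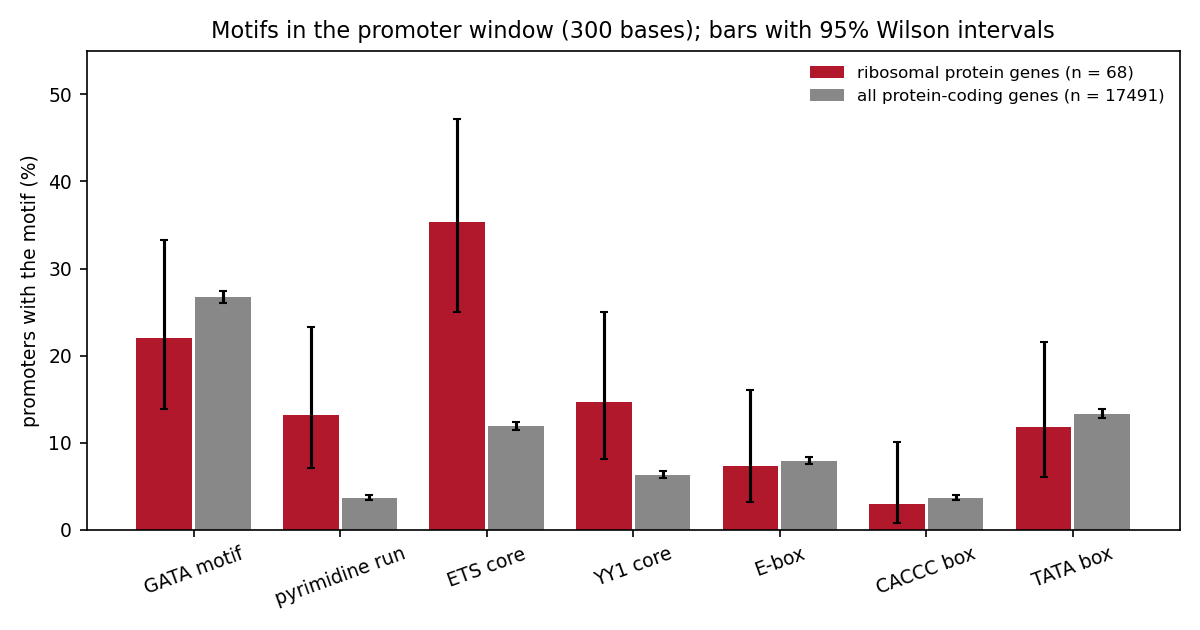
Share of promoters (%) holding each motif in the window of 300 bases at the 5′-most listed start, for 68 ribosomal protein genes and 17491 protein-coding genes, with 95% Wilson intervals. The ETS core is at 35.3% in members and 11.9% in all, and the GATA motif at 22.1 and 26.7%.

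The remaining peaks lay further from the member and often nearer to, or inside, another gene. Rps26 and Rps20, small subunit genes of the anaemia list, had peaks 1.14 kb from the gene. For Rps26 the peak, at 128627450 to 128627849 on chromosome 10, was upstream of the start, with Ikzf4, a zinc finger transcription factor gene, 3.19 kb from the midpoint. For Rps20 there was no other coding gene within 10 kb. Rpl18, a large subunit gene on the same list, had a peak 28 bp beyond its annotated lower-coordinate end, but this was 2.63 kb upstream of its listed start. That peak lay inside Sphk2, which encodes a sphingosine kinase, 232 bp upstream of a listed Sphk2 start. Rpl14 had a peak on either side of the gene, 2.44 and 2.55 kb away, the first of them 0.749 kb from Entpd3 and the second 129 bp upstream of the start of a transcript listed as 5830454E08Rik. Rpl7 had a peak at 3.91 kb and was the nearest coding gene to it.

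The peaks counted for Rpl32 and Rpl22, 5.58 and 5.96 kb from these genes, lay inside the neighbouring Efcab12 and Chd5. The second Rpl21 peak, at 9.49 kb, lay inside Rasl11a. The peak counted for Rpl13a, at 8.85 kb, was 1.10 kb from Flt3l, which encodes the ligand of the receptor tyrosine kinase Flt3. When each peak was given only to the nearest coding gene, 14 members (15.9%) kept one, beside 12.3% of all protein-coding genes. The 5 that did not were Rpl13a, Rpl18, Rpl22, Rpl32 and Rps27.

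Just inside the window was Rpl13a at 8.85 kb, and just outside it were Rps16 at 11.9 kb, Rpl36 at 12.2 kb and Rps15a at 13.3 kb. The Rps16 peak lay inside Supt5, 60 bp from a start of that gene, and the Rps15a peak inside Arl6ip1. The nearest peak lay between 10 and 20 kb for 11 members, which also included Rpl3, Rpl24, Rpl34, Rpl37, Rps21 and Rps23.

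For 17 members the nearest peak lay at 20 to 50 kb, among them Rpl5's partner in the Mdm2-binding complex, Rpl11, at 20.5 kb. For 14 it lay at 50 to 100 kb, among them Rpl5 at 50.8 kb and Rps14, the gene linked to the anaemia of the 5q deletion in human marrow, at 64.4 kb. For 27 it lay beyond 100 kb. These included the stalk genes Rplp0, Rplp1 and Rplp2, which recruit translation factors to the ribosome, as well as Rps6, whose product is phosphorylated by the S6 kinases, at 279 kb, and Rps24 at 400 kb. The farthest was Rpl36a on the X at 5394 kb.

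By the subunit named in the symbol, 13 of 54 large subunit genes (24.1%, 14.6 to 36.9%) and 6 of 34 small subunit genes (17.6%, 8.35 to 33.5%) had a peak within 10 kb, beside the 16.5% of all protein-coding genes. The intervals overlap widely. The 12 members that encode paralogs or no core ribosomal protein, such as the muscle paralog Rpl3l, the testis paralog Rpl10l, Rpl22l1, Rpl39l, Rps27l and the binding protein gene Rps19bp1, had none (0 of 12, Wilson upper limit 24.2%). Without them the share was 19 of 76 core members (25%, 16.6 to 35.8%), beside 16.5% of all protein-coding genes. All 12 genes left out lacked a peak, which raises the share, and the background was not trimmed in the same way. The lower limit lies next to the background, and no excess is read from it. Of these core members, 13 of 46 large subunit genes (28.3%, 17.3 to 42.5%) and 6 of 30 small subunit genes (20%, 9.51 to 37.3%) had a peak. Of 22 members linked to Diamond-Blackfan anaemia, 6 had a peak (27.3%, 13.2 to 48.2%), namely Rps7, Rps19, Rps20, Rps26, Rps27 and Rpl18, and of the other 66 members 13 did (19.7%, 11.9 to 30.8%). A start peak was present in 3 of 18 anaemia genes (16.7%, 5.84 to 39.2%) and 4 of 50 other members with a listed start (8%, 3.15 to 18.8%), beside 4.27% of all protein-coding genes with a listed start. The 16 anaemia genes without a peak within 10 kb included Rps10, Rps24, Rps28, Rps29, Rpl5, Rpl11, Rpl15, Rpl26, Rpl31 and Rpl35a. The 3 other genes of the list, which act outside the ribosome itself, were Gata1, with 2 peaks, and Tsr2 and Heatr3, with none.

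Many ribosomal protein genes carry in their introns the small nucleolar RNAs that guide modification of ribosomal RNA. At least 1 such RNA gene lay inside 29 members, and 7 of these had a peak (24.1%, 12.2 to 42.1%), beside 12 of the other 59 (20.3%, 12.0 to 32.3%). Both intervals include the 16.5% of all protein-coding genes. The hosts with a peak included Rpl10, Rpl13, Rpl13a, Rpl21, Rpl32 and Rps20. Rpl13a held 4 such genes, while Rpl4, which held 5, had no peak within 10 kb.

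The lists for the rest of the translation machinery gave shares from 10 to 25%, beside 16.5% of all protein-coding genes. Of 4 ribosomal genes outside the symbol rule, such as Rpsa and Rack1, Fau had a peak, at 1.67 kb. Peaks lay within 10 kb of 12 of 78 mitochondrial ribosomal protein genes (15.4%, 9.03 to 25%), with those of Mrps17, Mrps12, Mrpl11 and Mrps25 closest to a gene end, at 13 to 147 bp. Of 52 ribosome assembly genes, 12 had one (23.1%, 13.7 to 36.1%). Closest to a gene end, at 13 to 61 bp, were those of Nvl, Sbds, the gene of the Shwachman-Diamond syndrome, Fbl, encoding the ribosomal RNA methyltransferase fibrillarin, Utp6 and Nol9. Initiation factors had 8 of 37 (21.6%), with Eif5a, Eif3d and Eif4h closest. Elongation and termination factors had 2 of 12 (Eef1a1 and Pelo). Genes of RNA polymerases I and III had 6 of 33 (18.2%), among them Brf1, Polr3b, Polr3e and Ubtf. Genes of growth control had 4 of 21 (19.0%), namely Rptor, Eif2ak1, the haem-regulated kinase that restrains translation when haem is short, Tsc2 and Eif4ebp1. Of the genes for the Rpl5, Rpl11 and p53 response, 1 of 10 had one (Trp53). Start peaks were also found in some of these lists. A peak within 1 kb of a listed start was present in 4 of 40 assembly genes (10%) and 3 of 28 RNA polymerase genes (10.7%), close to the 10.3% of members. The shares were lower for initiation factors (2 of 29, 6.90%), growth control (1 of 17, 5.88%) and mitochondrial ribosomal protein genes (4 of 69, 5.80%). None was present in 8 elongation and termination factors, 9 genes for the Rpl5, Rpl11 and p53 response and 3 ribosomal genes outside the rule. These counts are of genes with a listed start, and 4.27% of all such protein-coding genes had a start peak.

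**Figure D4:**
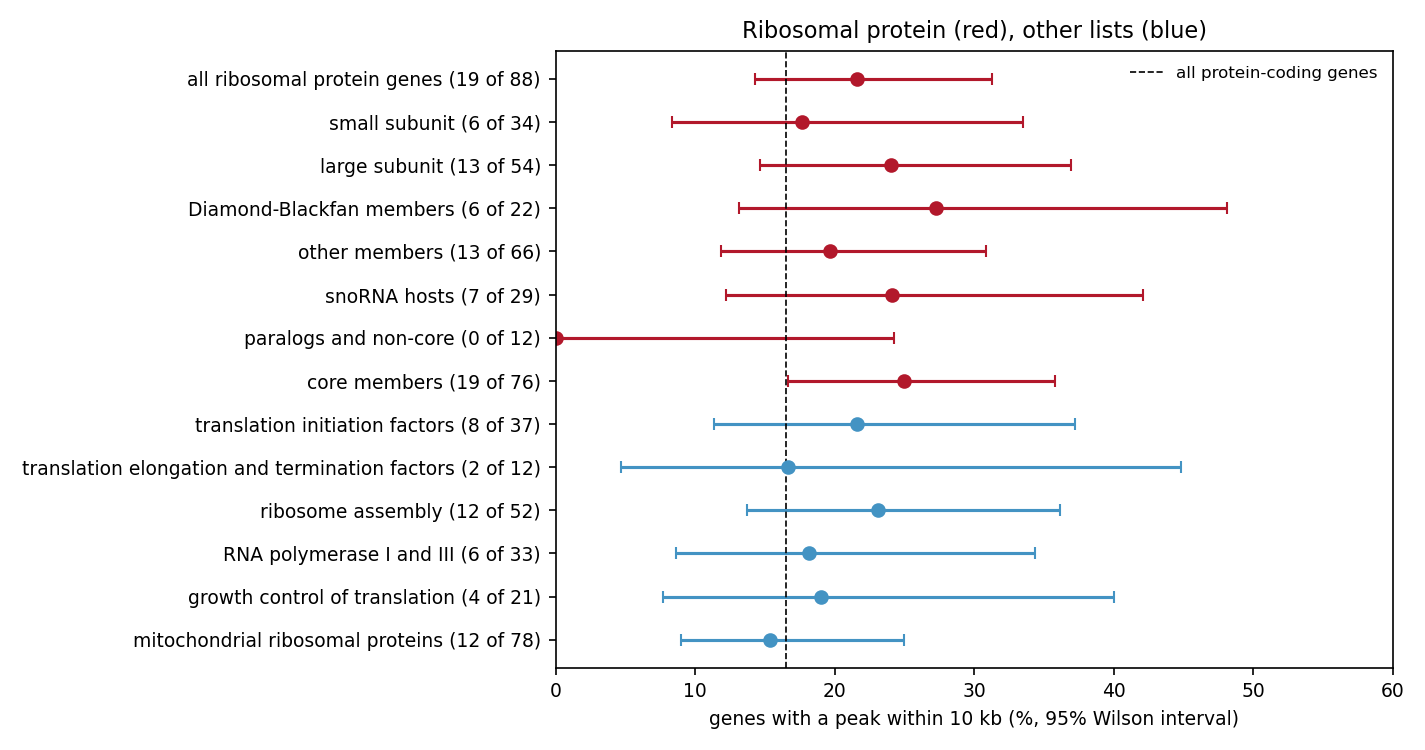
Share of genes (%) called bound at 10 kb, with 95% Wilson intervals, for the ribosomal protein family and its subgroups (red) and other translation lists (blue); the dashed line is the 16.5% of all protein-coding genes. The intervals drawn include the dashed line or, for the 76 core members (16.6 to 35.8%), begin next to it. The family was selected on these same counts, and no difference from the line was tested.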

How the data were processed

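Per the labels' protocols, sorted cells were fixed with 1% formaldehyde, immunoprecipitated with 7 µg of antibody with carrier histone and RNA, and sequenced after selection of fragments of 150 to 400 bp. Per the submitters' processing notes, Bowtie2 2.0.6 and MACS2 2.0.10 were used with build mm10. Settings, peak threshold, use of the control, treatment of reads that map more than once and the step that fixed the width are not stated in any label or header. Processed pseudogenes of ribosomal protein genes are numerous, and their part in read mapping was not tested. The deposited peak positions are in 3 columns (other values, such as scores, were not part of the file), and depth is unknown.

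Genes came from the RefSeq table of GRCm38.p6. Entries below 3 Mb on autosomes or X, on the mitochondrial genome or unplaced were left out. Starts and strands came from the RefSeq promoter table, which matched 68 of 88 members. Not listed there were 20 members, among them Rpl7, Rpl8, Rpl21, Rpl32, Rps20 and Rps27a. Motifs were searched at the 5′-most listed start. Positions are 1-based. The counting was tested on simulated data. Wilson intervals cover counting of genes only. Members and lists were chosen with earlier results of these data known, and no test was run. The rule named all members with a peak, the 5 just outside the window and the closest genes of each list. Some genes that it named are not reported here, and further members were named after their values were seen. Python 3.11.15, numpy 2.4.6, scipy 1.17.1, pandas 2.3.3 and matplotlib 3.10.9 were used.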

Additional observations from a re-analysis of the deposited data

How the results depend on the processing

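The count of members with a peak, 19 of 88 with 10 kb, was 11 with 1 kb, 16 with 5 kb and 47 with 50 kb, as the window itself sets how many peaks can fall in it. It stayed at 19 with any overlap (16.6% of all protein-coding genes) and was 14 with the nearest gene only. The start count was 6, 7, 7 and 8 of 68 for 250 bp, 500 bp, 1 kb and 2 kb. The 21 distinct peaks stayed 21 when peaks within 1 kb were merged. In the bases before the start alone, the share of members with TCTTTCC fell to 2.94% (3.26% of all coding promoters) and with AAGATGG to 5.88% (4.08% of all), since matches after the start no longer counted; the other motif shares stayed inside their intervals. For the other lists the windows of 1 and 50 kb were chosen after seeing the data. With 50 kb the shares were 56.0% (Diamond-Blackfan anaemia), 37.8% (initiation), 46.2% (assembly), 36.4% (RNA polymerases), 61.9% (growth control), 70.0% (Rpl5, Rpl11 and p53) and 38.5% (mitochondrial ribosomal proteins). Elongation and termination factors had 41.7%, the 4 ribosomal genes outside the rule 50% and the stalk genes 0%. Of all protein-coding genes, 32.0% had a peak within 50 kb. The 70.0% is a share of only 10 genes. With 1 kb the list shares were 0% for elongation factors, for stalk genes and for the 4 ribosomal genes outside the rule. Mitochondrial ribosomal proteins had 6.41%. The others were at 10% (Rpl5, Rpl11 and p53), 13.5% (initiation), 14.3% (growth control), 15.2% (RNA polymerases), 19.2% (assembly) and 20% (Diamond-Blackfan anaemia). Of all protein-coding genes, 11.3% had a peak within 1 kb. The either-end count, the background of short genes with many neighbours and the search for GATA without flanks were also added after seeing the data. A stricter peak threshold was not run, since the file holds no score. No paired analysis was possible because there is 1 ChIP library.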
